A study of Mus musculus with 20 samples.

Results

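Transcripts of 10 immune checkpoint genes were measured in 20 tumours of B16F10, a mouse melanoma line grown in immunocompetent C57BL/6 mice. The genes are Pdcd1, Cd274, Pdcd1lg2, Ctla4, Lag3, Havcr2, Tigit, Tox, Entpd1 and Vsir. They were taken by symbol, all 10 were found among the 32285 genes of the deposited tables, and all 10 passed the filter on low counts that left 15875 genes for testing. The labels assign 5 tumours to propafenone together with anti-PD-1, called the combination here, 5 to anti-PD-1, 5 to propafenone and 5 to control IgG. The labels give a wild type genotype in all 4 groups. Injections were intraperitoneal once tumours had reached about 100 mm3, and the tumours were excised on day 16. Propafenone, used against cardiac arrhythmia, inhibits sodium channels of the heart. The anti-PD-1 antibody binds the protein that Pdcd1 encodes. The sources used here do not give doses, antibody clones or the age and sex of the mice. Nothing in the labels says that each tumour came from a separate mouse, so the p-values below measure the spread between these tumours.

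Checkpoint receptors are inhibitory proteins, mostly on activated T cells, that dampen T cell activation when their ligands are present on tumour or myeloid cells. PD-1, encoded by Pdcd1, is engaged by the ligands PD-L1 (Cd274) and PD-L2 (Pdcd1lg2), and interferon gamma is a well known inducer of Cd274. Antibodies that block PD-1 act on protein binding, so transcript levels of these genes do not measure the block itself. In melanoma such antibodies are used to release T cells from this inhibition.

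The libraries were made from whole tumour pieces, and although the labels name melanoma cells as the cell type, several cell types contributed RNA. Melanocyte markers were high in every tumour, with medians from 555 CPM for Mlana to 5646 CPM for Tyrp1. CPM are counts per 1000000 counts, scaled here by TMM, a method that corrects for differences in library composition. T cell transcripts were scarce. The 13 T cell markers summed to 8.41 ± 5.24 CPM in combination tumours (mean ± SD, n = 5 in this and each other group), 5.14 ± 3.42 CPM after anti-PD-1, 5.47 ± 4.14 CPM after propafenone and 3.71 ± 2.72 CPM in IgG tumours. Of these, Cd3e was at 0 in 2 tumours and Cd3g in 3 tumours. The 13 macrophage markers summed to 352 ± 108 CPM in combination tumours, 206 ± 46.9 CPM after anti-PD-1, 127 ± 59.4 CPM after propafenone and 108 ± 79.3 CPM after IgG. Markers of skeletal muscle, another tissue, summed to 42.9 to 590 CPM in combination tumours, 6.80 to 320 CPM after anti-PD-1, 14.5 to 76.4 CPM after propafenone and 6.76 to 86.5 CPM after IgG. Red blood cell markers ran the other way, with sums of 172 to 453 CPM in combination tumours, 307 to 5773 CPM after anti-PD-1, 770 to 6591 CPM after propafenone and 290 to 11690 CPM after IgG, and 7 of 7 were lower in combination tumours against IgG (median log2 fold change -3.80, 2 called by edgeR). The 5 tumours above 1000 CPM of the haemoglobin gene Hbb-bs were 1 anti-PD-1, 2 propafenone and 2 IgG tumours. The part of muscle and blood in the results below was not tested beyond the fits with a muscle covariate or without these 5 tumours. The muscle marker score used as covariate is the mean log2 CPM of the muscle markers, centred over the tumours. It ran from -0.485 to 3.30 in combination tumours and from -4.29 to 0.308 in IgG tumours. Score and treatment largely went together, so a fit with this covariate cannot tell muscle from treatment. In bulk RNA, more cells of a type and more RNA per cell cannot be told apart.

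Vsir and Entpd1 were the members with called differences, and the promoters of both are shown because a reader can see there the start sites behind the gene-level counts. Entpd1 has 2 entries, and gene-level counts do not separate the 2 starts. Each run holds 250 bases before and 50 bases after a transcript start on the plus strand of GRCm38.p6, from RefSeq, at chr10:60346601-60346900 for Vsir, chr19:40612116-40612415 for the first Entpd1 start and chr19:40659520-40659819 for the second. Capitals mark a match to GAGGAAG, a core recognised by ETS factors such as PU.1 of myeloid cells.
Vsir: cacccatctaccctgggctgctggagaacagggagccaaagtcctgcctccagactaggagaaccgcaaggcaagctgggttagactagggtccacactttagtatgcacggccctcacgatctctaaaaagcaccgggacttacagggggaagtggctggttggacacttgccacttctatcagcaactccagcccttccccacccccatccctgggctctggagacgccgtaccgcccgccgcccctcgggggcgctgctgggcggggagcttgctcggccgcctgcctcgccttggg
Entpd1, first start: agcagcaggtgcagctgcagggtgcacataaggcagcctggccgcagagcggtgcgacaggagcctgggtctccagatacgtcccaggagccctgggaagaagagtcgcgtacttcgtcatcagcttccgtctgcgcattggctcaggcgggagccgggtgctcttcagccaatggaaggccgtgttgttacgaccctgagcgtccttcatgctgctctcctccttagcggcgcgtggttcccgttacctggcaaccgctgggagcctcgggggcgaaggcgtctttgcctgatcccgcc
Entpd1, second start: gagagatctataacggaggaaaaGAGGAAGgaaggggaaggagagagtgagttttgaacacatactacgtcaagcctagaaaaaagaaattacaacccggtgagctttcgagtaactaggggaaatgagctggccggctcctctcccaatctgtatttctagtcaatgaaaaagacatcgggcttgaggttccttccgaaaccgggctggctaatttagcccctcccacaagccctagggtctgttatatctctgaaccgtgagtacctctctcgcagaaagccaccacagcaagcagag
The match in the second Entpd1 promoter begins 227 bases before the start. GAGGAAG was searched on both strands and is held by 13.6% of the 32851 promoters of this length, and by 3 of the 9 promoters listed for 8 members, those of Pdcd1, Havcr2 and the second Entpd1 start. The GAAA repeat bound by interferon regulatory factors, GAAA and GAAA parted by NN, was found in 3.44% of all promoters and in 0 of the 9. Also searched was the GAS motif, TTCNNNGAA with any base at N, found in 8.3% of all promoters and in 0 of the 9. The motifs were counted separately, also where matches overlap, and each match is a description of the letters in this window.

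The levels of the members differed widely. Comparisons between genes use the deposited TPM, transcript abundances that the authors scaled by gene length. Over the 20 tumours the median TPM was 5.29 for Cd274, 2.57 for Entpd1, 1.74 for Havcr2 and 1.59 for Vsir. It was 0.817 for Tigit, 0.644 for Lag3, 0.622 for Pdcd1, 0.231 for Ctla4, 0.152 for Pdcd1lg2 and 0.0797 for Tox. Cd274 was above Entpd1 in 19 of 20 tumours, Entpd1 above Havcr2 in 17, Vsir above Tigit in 18 and Pdcd1 above Ctla4 in 18. The order of the other neighbours was less even: Havcr2 was above Vsir in 13 of 20 tumours, Ctla4 above Pdcd1lg2 in 14, Tigit above Lag3 in 12, Lag3 above Pdcd1 in 11 and Pdcd1lg2 above Tox in 11. The 4 most abundant members are known from myeloid or tumour cells as well as from T cells.

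**Figure D1:**
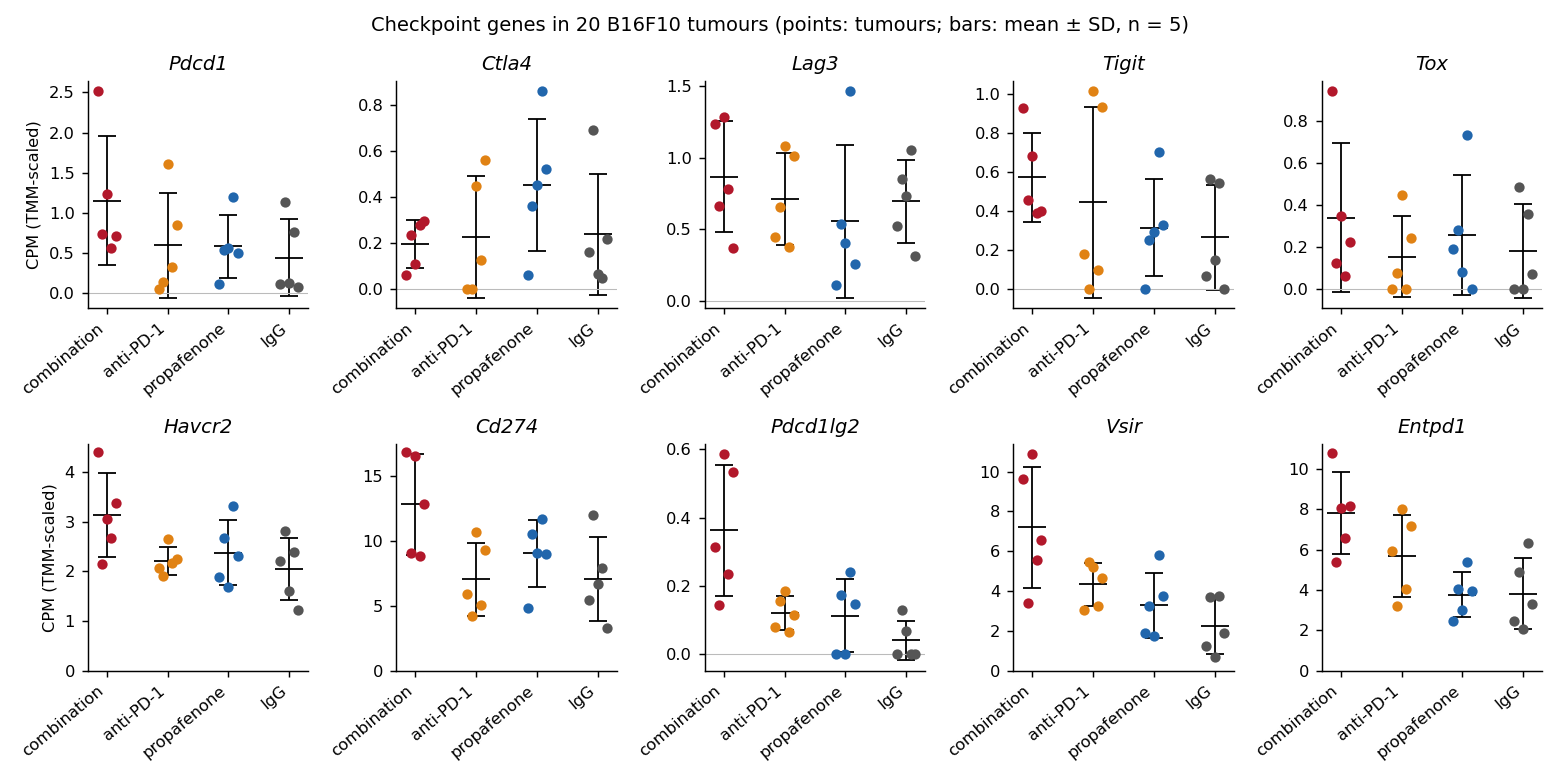
TMM-scaled CPM (vertical axes, 1 panel per gene) in the combination, anti-PD-1, propafenone and IgG tumours, with 1 point per tumour and bars for mean ± SD, n = 5 each. The combination tumours hold the highest group mean for each gene but Ctla4, and the groups overlap for most genes.

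Among all 10 members, 9 had their highest group mean in combination tumours, and Ctla4 was the exception. Against IgG, 9 of 10 were higher by log2 fold change, as were 48.2% of all genes, with a median of 0.96 over the members and -0.01 over all 15875 genes. Also higher were 13 of 13 T cell, 13 of 13 macrophage, 6 of 6 NK cell and 8 of 9 dendritic cell markers, against 0 of 7 red blood cell markers. The direction was thus shared with other leukocyte genes. With a muscle marker score as covariate the signs of Tigit (-0.42) and Tox (-0.28) turned, and Entpd1 and Pdcd1 had log2 fold changes of 0.38 and 0.17. At an adjusted p under 0.05, edgeR called 1 of the 10 members higher and 0 lower, where 2.24% of all genes were called higher and 2.63% lower, 4.88% in all. An unadjusted p under 0.05 was reached by 5 members, Vsir, Entpd1, Pdcd1lg2, Cd274 and Havcr2, and by 3741 of the 15875 genes tested. Each fold change is given with its standard error, and each adjusted p is by edgeR's quasi-likelihood test with Benjamini-Hochberg adjustment over all genes tested. Comparisons below share control tumours, so their values stand side by side and are not independent of each other.

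Vsir, which encodes the inhibitory protein VISTA of myeloid cells and T cells, rose in combination tumours against IgG. The gene lies on the plus strand at chr10:60346851-60372684 (GRCm38, GENCODE 21). In replicates 1 to 5 it measured 9.64, 3.41, 10.9, 5.55 and 6.56 CPM in combination tumours and 3.07, 5.46, 5.20, 3.26 and 4.64 CPM after anti-PD-1. It measured 1.91, 3.26, 1.76, 5.78 and 3.73 CPM after propafenone and 1.21, 3.71, 0.664, 3.77 and 1.897 CPM after IgG. Of the combination tumours 4 of 5 were above every IgG tumour, and replicate 2 lay below the highest IgG values. The log2 fold change was 1.68 ± 0.43 (SE; combination 7.21 ± 3.04 CPM, IgG 2.25 ± 1.43 CPM, SD, n = 5 each; edgeR adjusted p = 0.0315). Over the 11 alternatives other than left-out tumours and over the 20 left-out tumours the value kept its sign. The call was lost without combination replicate 1, 3, 4 or 5 or IgG replicate 1, 3 or 5, with adjusted p up to 0.0853, and over the 20 left-out tumours the log2 fold change lay between 1.45 and 1.97. With a muscle marker score as covariate it was 1.54 (adjusted p = 0.179).

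Macrophage transcripts moved with Vsir. Of the 13 macrophage markers 8 were called higher in combination tumours against IgG, with a median log2 fold change of 1.73, and the summed markers ranged from 218 to 486 CPM against 42.8 to 197 CPM. Combination replicate 3 had both the highest Vsir level and the highest macrophage sum, 486 CPM, while its muscle sum, 42.9 CPM, was the lowest of its group. The log2 ratio of Vsir to the macrophage sum was -5.64 ± 0.22 in combination tumours, -5.54 ± 0.20 after anti-PD-1, -5.22 ± 0.13 after propafenone and -5.45 ± 0.39 after IgG (mean ± SD, n = 5 each). The same ratio for Entpd1 was -5.45 ± 0.26 in combination tumours, -5.20 ± 0.62 after anti-PD-1, -4.95 ± 0.29 after propafenone and -4.58 ± 0.50 after IgG. The part of macrophage content in the Vsir and Entpd1 levels was not tested. Cdh23 overlaps Vsir on the opposite strand and had a median of 0 CPM and a maximum of 0.307 CPM.

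Entpd1 encodes CD39, an enzyme at the cell surface that breaks down extracellular ATP and ADP to AMP, and marks regulatory and exhausted T cells as well as myeloid and endothelial cells. The gene lies at chr19:40612366-40741602 on the plus strand. It measured 10.8, 5.41, 8.08, 6.57 and 8.19 CPM in combination tumours and 5.94, 3.21, 8.03, 4.04 and 7.17 CPM after anti-PD-1. It measured 2.48, 4.03, 3.02, 5.37 and 3.94 CPM after propafenone and 2.47, 4.91, 2.08, 6.33 and 3.32 CPM after IgG. All 5 combination tumours were above all 5 propafenone tumours, which holds in this direction for 3.65% of all genes, and 4 of 5 were above every IgG tumour. Against propafenone the log2 fold change was 1.05 ± 0.30 (edgeR adjusted p = 0.0534), and against IgG 1.03 ± 0.30 (edgeR adjusted p = 0.0532). Neither passed the threshold, and the exact permutation test over tumours against propafenone gave p = 0.007937, the smallest it can give (two-sided, 5 against 5; 0.1984 after adjustment over 50 member comparisons). Against propafenone 0 of 10 members were called by edgeR, where 3.88% of all genes were (1.67% higher, 2.21% lower), and an unadjusted p under 0.05 was reached by Vsir and Entpd1; DESeq2 called 2 members there. Entpd1 against IgG was called by DESeq2 (adjusted p = 0.0124), by limma voom (0.0299) and by limma on the TPM, with a pseudocount of 1 (0.0263) or 0.1 (0.0372). With the muscle covariate the log2 fold change against IgG was 0.38 (edgeR adjusted p = 0.631). The threshold was passed by Entpd1 against IgG without anti-PD-1 replicate 2 or 3, propafenone replicate 4 or IgG replicate 4, and against propafenone without anti-PD-1 replicate 2 or 3, propafenone replicate 4 or IgG replicate 3.

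The 4 groups form a 2 by 2 design, so the effect of the antibody was also taken as its mean over tumours with and without propafenone. In this comparison Entpd1 and Vsir were called higher, 2 of 10 members, where 3.92% of all genes were called higher and 4.42% lower, 8.35% in all. The log2 difference was 0.81 ± 0.21 for Entpd1 (edgeR adjusted p = 0.0266) and 1.04 ± 0.30 for Vsir (edgeR adjusted p = 0.037, and 0.0532 without a filter on low counts). The members' median was 0.52, against -0.01 over all genes. Macrophage markers moved in the same comparison, with 9 of 13 called higher, and so did 12 of 13 muscle markers. Of 6 endothelial markers 3 were called higher (median 0.46), as were 2 of 6 in combination tumours against propafenone (median 0.68), and of 7 red blood cell markers 2 were called lower. Summed endothelial markers averaged 434 ± 37.8 CPM in combination tumours, 448 ± 40.6 CPM after anti-PD-1, 369 ± 57.4 CPM after propafenone and 436 ± 47.9 CPM after IgG (SD, n = 5 each). These sums mostly reflect Eng, with a median of 296 CPM, where Pecam1, the next highest, had 39.4 CPM. By single genes, 5 of 6 endothelial markers were higher in combination tumours against IgG (median log2 fold change 0.42), and 1 was called. The part of endothelial cells in the Entpd1 values was not tested. With the muscle score as covariate the values were 0.38 for Entpd1 (adjusted p = 0.338) and 0.96 for Vsir (adjusted p = 0.101). The Entpd1 call was lost without combination replicate 1, propafenone replicate 3 or IgG replicate 3, with log2 differences over all left-out tumours of 0.74 to 0.96. The Vsir call held in 7 of 20 such fits and was lost without combination replicate 1, 3, 4 or 5, anti-PD-1 replicate 2 or 5, propafenone replicate 1, 2, 3 or 5, or IgG replicate 1, 3 or 5, with log2 differences of 0.92 to 1.19 and adjusted p up to 0.0777.

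**Figure D2:**
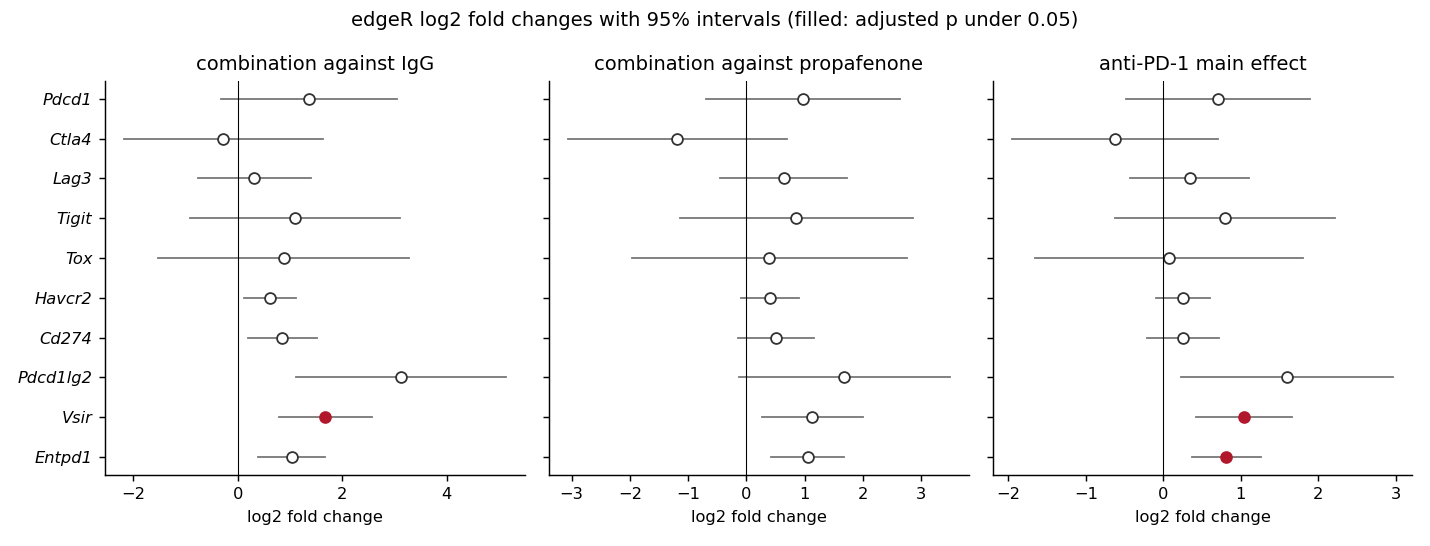
Log2 fold changes by edgeR (horizontal axes) of the 10 genes for combination against IgG, combination against propafenone and the mean anti-PD-1 effect, with 95% intervals, filled where the adjusted p was under 0.05. Vsir is filled at 1.68 and 1.04 and Entpd1 at 0.81, and no gene is filled against propafenone.

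The remaining comparisons gave no call for any member. Anti-PD-1 alone against IgG had 0 of 15875 genes called by edgeR, 0%, with 1203 at an unadjusted p under 0.05, and Vsir was the 1 member among them (log2 fold change 0.94 ± 0.42, adjusted p = 0.62). DESeq2 called 21 genes there. Propafenone alone against IgG had 0 genes called by edgeR, 0%, with 754 at an unadjusted p under 0.05, 3 by DESeq2, and 0 members among them at an unadjusted p under 0.05. The combination against anti-PD-1 had 0 genes called by edgeR, 0%, with 1552 at an unadjusted p under 0.05 and 7 called by DESeq2. Cd274 and Havcr2 reached an unadjusted p under 0.05 in it, at log2 fold changes of 0.86 ± 0.32 and 0.51 ± 0.24 (adjusted p = 0.445 and 0.499). The mean effect of propafenone had 0 genes called by edgeR, 0%, with 1908 at an unadjusted p under 0.05 and 9 called by DESeq2. Cd274, Pdcd1lg2, Vsir and Havcr2 reached an unadjusted p under 0.05 there, with adjusted p from 0.311 to 0.405.

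Whether the effect of the combination departed from the sum of the single effects was asked with the interaction term. It had 0 genes called by edgeR, 0%, with 482 at an unadjusted p under 0.05 and 2 called by DESeq2. For Vsir the interaction was 0.19 on the log2 scale, with a 95% interval of -1.03 to 1.42, and for Entpd1 it was 0.48, with an interval of -0.41 to 1.37. For Cd274 it was 0.51, with an interval of -0.42 to 1.44. These intervals include 0 as well as departures of more than 1 log2 unit, so additive and non-additive effects of that size were not separated at this number of tumours.

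Cd274, the gene of PD-L1 carried by tumour and myeloid cells, was the most abundant member. It lies at chr19:29367455-29388095 on the plus strand. It measured 16.8, 9.01, 16.5, 8.81 and 12.8 CPM in combination tumours and 5.93, 4.21, 10.7, 5.06 and 9.30 CPM after anti-PD-1. It measured 4.85, 10.5, 9.03, 11.7 and 8.95 CPM after propafenone and 5.41, 11.97, 6.67, 7.91 and 3.30 CPM after IgG. Replicate 2 of IgG exceeded 2 of the combination tumours, and the other 3 combination tumours were above every IgG tumour. The log2 fold change against IgG was 0.86 ± 0.32 (95% interval 0.20 to 1.52, edgeR adjusted p = 0.108).

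Pdcd1lg2, the gene of PD-L2, lies 22.82 kb downstream of Cd274 at chr19:29410919-29471161, and its transcripts were near the limit of detection. It measured 0.314, 0.142, 0.586, 0.235 and 0.534 CPM in combination tumours and 0.0799, 0.154, 0.183, 0.0630 and 0.113 CPM after anti-PD-1. It measured 0, 0.173, 0, 0.239 and 0.147 CPM after propafenone and 0, 0.129, 0.0664, 0 and 0 CPM after IgG. A count of 0 allows up to 3 counts, which is 0.0465 to 0.0536 CPM by library, or 0.186 to 0.214 CPM if 1 fragment adds 4 counts; floors and intervals cover counting error only. All 5 combination tumours were above all 5 IgG tumours, as were 4.72% of all genes in this direction, and 4 of the 5 were above every anti-PD-1 tumour. The margin to IgG was narrow, with 9 counts in combination replicate 2 and 8 counts in IgG replicate 2. Both values lie under the floor for a fragment of 4 counts. The fitted log2 fold change against IgG was 3.12 ± 0.97 (edgeR adjusted p = 0.0625), and with 3 IgG tumours at 0 its size depends on how the fit treats zeros. An exact permutation test over tumours likewise gave p = 0.007937, and 0.1984 after adjustment over the 50 comparisons. Without IgG replicate 2, an IgG tumour with counts, the edgeR value passed (log2 fold change 4.27, edgeR adjusted p = 0.0389), and DESeq2 and limma voom called the gene with all tumours (adjusted p = 0.0278 and 0.0351). Its value was 3.13 without a filter (edgeR adjusted p = 0.11), 2.88 with the muscle covariate (0.244), 2.45 without the Hbb-bs tumours (0.171) and 0.46 with limma on log2(TPM + 1) (0.00779). For the mean anti-PD-1 effect Pdcd1lg2 was not called by edgeR (1.60 ± 0.66, adjusted p = 0.131), but was with voom (0.0342), log2(TPM + 1) (0.0407) and log2(TPM + 0.1) (0.032).

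An antisense gene, A930007I19Rik, overlaps Pdcd1lg2 and measured 0.452 to 1.24 CPM with a median of 0.868 CPM, a range that overlaps the upper values of Pdcd1lg2. The strand setting of the counting is not given. Pdcd1lg2 was at 0 in 5 tumours although A930007I19Rik had counts in every tumour. Whether reads of the pair were mixed in the other tumours was not tested. Pdcd1lg2 took 5.36 ± 2.04% of the summed TPM of both PD-1 ligands in combination tumours, 3.50 ± 2.17% after anti-PD-1, 2.03 ± 1.896% after propafenone and 0.808 ± 1.11% after IgG (SD, n = 5 each). PD-L1 transcripts made up the great majority of the pair in every group. These shares rest on few counts and were not tested.

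Havcr2 encodes TIM-3, an inhibitory receptor of exhausted T cells that dendritic cells and macrophages also carry, and lies at chr11:46454935-46481255. It measured 4.41, 2.15, 3.06, 2.68 and 3.38 CPM in combination tumours and 2.06, 1.902, 2.64, 2.17 and 2.24 CPM after anti-PD-1. It measured 1.88, 2.68, 1.69, 3.31 and 2.31 CPM after propafenone and 2.21, 2.81, 1.61, 2.39 and 1.22 CPM after IgG. Combination and IgG tumours overlapped, with 3 of 5 combination tumours above every IgG tumour (log2 fold change 0.61 ± 0.24, edgeR adjusted p = 0.126). Against the summed T cell markers, the log2 ratio of Havcr2 CPM + 0.1 was -1.20 ± 0.52 in combination tumours and -0.85 ± 0.99 after anti-PD-1. After propafenone the ratio was -0.91 ± 0.61, and after IgG -0.50 ± 0.95 (SD, n = 5 each). Against the macrophage sum the Havcr2 ratio was -6.74 ± 0.30 in combination tumours and -6.45 ± 0.335 after anti-PD-1. It was -5.585 ± 0.37 after propafenone and -5.38 ± 0.82 after IgG (SD, n = 5 each). Neither set of ratios was tested.

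Pdcd1, the receptor gene itself, lies at chr1:94038305-94052553 on the minus strand. It measured 2.51, 0.742, 1.24, 0.563 and 0.712 CPM in combination tumours and 0.0479, 0.135, 1.61, 0.331 and 0.854 CPM after anti-PD-1. It measured 0.111, 0.535, 0.569, 1.195 and 0.505 CPM after propafenone and 0.115, 1.13, 0.133, 0.767 and 0.0737 CPM after IgG. Within each group the highest tumour exceeded the lowest by several fold, and all groups overlapped. The log2 fold change of combination against IgG was 1.37 ± 0.81 (95% interval -0.32 to 3.06, edgeR adjusted p = 0.316), and that of anti-PD-1 against IgG was 0.42 ± 0.81 (adjusted p = 0.956). Set against the T cell marker sum, Pdcd1 stood at a log2 ratio (of CPM + 0.1) of -2.72 ± 0.46 in combination tumours, -3.12 ± 0.93 after anti-PD-1, -2.94 ± 0.56 after propafenone and -2.89 ± 0.46 after IgG (SD, n = 5 each). These group means differed by less than 1 SD of the anti-PD-1 tumours.

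Ctla4, a receptor that competes with the costimulator CD28 for CD80 and CD86, was the 1 member whose lowest group mean was that of the combination tumours. It lies at chr1:60887000-60915832. It measured 0.0628, 0.237, 0.111, 0.282 and 0.297 CPM in combination tumours and 0, 0, 0.449, 0.126 and 0.564 CPM after anti-PD-1. It measured 0.0636, 0.362, 0.455, 0.860 and 0.522 CPM after propafenone and 0.164, 0.694, 0.0664, 0.0512 and 0.221 CPM after IgG. The propafenone tumours reached the highest values and the groups overlapped. The log2 fold change of combination against propafenone was -1.18 ± 0.90 (95% interval -3.07 to 0.70, edgeR adjusted p = 0.448), and against IgG it was -0.27 ± 0.91 (adjusted p = 0.887). Relative to the T cell markers the log2 ratio of Ctla4 was -4.69 ± 1.36 in combination tumours, -4.10 ± 0.60 after anti-PD-1, -3.24 ± 0.66 after propafenone and -3.38 ± 1.28 after IgG (SD, n = 5 each).

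Lag3, an inhibitory receptor that binds MHC class II, lies at chr6:124904361-124911705. It measured 1.24, 0.663, 1.28, 0.782 and 0.371 CPM in combination tumours and 0.447, 0.653, 1.08, 0.378 and 1.02 CPM in anti-PD-1 tumours. It measured 0.111, 0.535, 0.406, 1.47 and 0.261 CPM after propafenone and 0.524, 0.855, 0.730, 1.06 and 0.313 CPM after IgG. The highest value of all belonged to a propafenone tumour, and the combination and IgG groups overlapped over most of their range (log2 fold change 0.32 ± 0.52, 95% interval -0.77 to 1.40, edgeR adjusted p = 0.75). Against the T cell marker sum, the log2 ratio of Lag3 CPM + 0.1 was -3.01 ± 0.86 in combination tumours and -2.44 ± 0.90 after anti-PD-1. After propafenone the ratio was -3.11 ± 0.45, and it was highest after IgG, at -1.96 ± 0.78 (SD, n = 5 each). These ratios were not tested.

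Tigit, a receptor of T cells and NK cells for the ligands Pvr and Nectin2, lies at chr16:43648867-43664146. It measured 0.926, 0.458, 0.681, 0.391 and 0.401 CPM in combination tumours and 0.176, 0, 1.01, 0.0946 and 0.935 CPM in anti-PD-1 tumours. It measured 0, 0.252, 0.292, 0.701 and 0.326 CPM after propafenone and 0.0654, 0.565, 0.149, 0.546 and 0 CPM after IgG. All 5 combination tumours were above the IgG median, 2 of them were above every IgG tumour, and the anti-PD-1 tumours split into 2 high and 3 low or empty ones. The log2 fold change of combination against IgG was 1.10 ± 0.97 (95% interval -0.92 to 3.11, edgeR adjusted p = 0.516), and -0.42 with the muscle covariate (edgeR adjusted p = 0.889). Relative to the T cell markers, the log2 ratio of Tigit CPM + 0.1 was -3.49 ± 0.59 in combination tumours, -3.52 ± 0.49 after anti-PD-1, -3.72 ± 0.66 after propafenone and -3.37 ± 0.49 after IgG (SD, n = 5 each), so the group means lay within 1 SD of each other.

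Tox, a transcription factor of exhausted T cells, lies at chr4:6686353-6991557 and was the least abundant member per length. It measured 0.942, 0.126, 0.349, 0.0626 and 0.223 CPM in combination tumours and 0, 0.0768, 0.449, 0 and 0.242 CPM in anti-PD-1 tumours. It measured 0.191, 0.283, 0.0812, 0.733 and 0 CPM after propafenone and 0, 0.484, 0, 0.358 and 0.0737 CPM after IgG. Tumours at 0 occurred in each group except the combination, whose lowest value was 0.0626 CPM (log2 fold change against IgG 0.88 ± 1.15, 95% interval -1.52 to 3.29, edgeR adjusted p = 0.679; with the muscle covariate -0.28, edgeR adjusted p = 0.945). Most Tox and Ctla4 values lay near or under the floor for a fragment of 4 counts, and the intervals of their fold changes in combination tumours against IgG span more than 1 log2 unit on each side of 0.

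Partners of the checkpoint proteins were examined as a list of 26 ligands and receptors, of which 23 were tested. In combination tumours against IgG, Selplg and Cd80 rose and Pvr and Nectin2 fell, 2 of 23 called in each direction. Among all genes 2.24% were called higher and 2.63% lower. The list's median log2 fold change was 0.41, against -0.01 over all genes. Both genes that fell encode ligands of TIGIT. Nectin3, whose product has also been described as a TIGIT ligand, averaged 42.8 ± 1.09 CPM in combination tumours and 39.1 ± 3.62 CPM after IgG (0.13 ± 0.11, edgeR adjusted p = 0.481). Pvr measured 81.1, 70.3, 80.9, 67.9 and 71.5 CPM in combination tumours and 66.2, 82.5, 103.5, 86.4 and 106 CPM after anti-PD-1. It measured 102, 94.9, 150.3, 91.3 and 135 CPM after propafenone and 99.1, 113, 123, 102 and 113 CPM after IgG. All 5 combination tumours lay below every IgG tumour, as they did for 7.21% of all genes, and below every propafenone tumour, as they did for 4.88%. The log2 fold change of Pvr was -0.57 ± 0.13 against IgG (edgeR adjusted p = 0.0267) and -0.63 ± 0.13 against propafenone (edgeR adjusted p = 0.0261), and its mean anti-PD-1 effect was -0.47 ± 0.10 (edgeR adjusted p = 0.0091). That mean effect was called in each of the 20 fits without 1 tumour, with values from -0.50 to -0.39. The call against IgG was lost without combination replicate 1, 2, 4 or 5 or IgG replicate 3 or 5 (log2 fold change -0.60 to -0.52 over the 20 fits), and the call against propafenone without combination replicate 2, 3, 4 or 5 or propafenone replicate 3 or 5 (-0.70 to -0.49). The Pvr call against IgG held under 7 of the 11 other alternatives. Among those that lost it were library totals in place of TMM (edgeR adjusted p = 0.05) and limma on log2(TPM + 1) (0.0607). With the muscle covariate the log2 values kept their sign and were not called, at -0.45 against IgG (edgeR adjusted p = 0.273), -0.55 against propafenone (0.0519) and -0.39 for the mean anti-PD-1 effect (0.0838).

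Nectin2 measured 37.4, 36.2, 44.9, 37.2 and 35.8 CPM in combination tumours and 54.0, 45.2, 51.1, 50.1 and 55.7 CPM after IgG. The groups did not overlap, as for 7.21% of all genes in this direction, by a narrow margin between combination replicate 3 and IgG replicate 2 (log2 fold change -0.42 ± 0.12, edgeR adjusted p = 0.0461), and the call held in 7 of 20 fits without 1 tumour, being lost without combination replicate 1, 2, 4 or 5, anti-PD-1 replicate 5, propafenone replicate 1, 2, 3 or 5, or IgG replicate 1, 3, 4 or 5 (-0.48 to -0.37 over the 20 fits). The Nectin2 call was also lost under 8 of the 11 other alternatives, with adjusted p from 0.0556 with log2(TPM + 1) to 0.733 with the muscle covariate. Selplg, whose product PSGL-1 on leukocytes is a partner of VISTA at acidic pH, averaged 6.63 ± 2.17 CPM in combination tumours and 2.16 ± 1.36 CPM after IgG (log2 fold change 1.61 ± 0.41, edgeR adjusted p = 0.0318). Cd80, a ligand of CTLA-4 and CD28 on antigen-presenting cells, averaged 1.07 ± 0.541 CPM in combination tumours and 0.414 ± 0.121 CPM after IgG (1.37 ± 0.37, edgeR adjusted p = 0.0388). The related Cd86 averaged 1.66 ± 0.440 CPM in combination tumours and 0.541 ± 0.432 CPM after IgG and was not called (1.61 ± 0.51, edgeR adjusted p = 0.0651). The Selplg call was lost without combination replicate 1, 3, 4 or 5 or IgG replicate 1, 3 or 5 (1.43 to 1.99 over the 20 fits), and the Cd80 call without combination replicate 1, 2, 3 or 5 or IgG replicate 1, 2, 3 or 5 (1.05 to 1.55). With the muscle covariate neither was called (edgeR adjusted p = 0.32 for Selplg and 0.268 for Cd80), Selplg was not called without the 5 tumours above 1000 CPM of Hbb-bs (0.0506), and Cd80 was not called without a filter (0.0549) or by limma voom (0.056). The macrophage markers that rose with these leukocyte genes are given above, and their part was not tested.

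Among other partners, the ligands of TIM-3 were not called. Lgals9, the gene of galectin-9, averaged 66.3 ± 12.3 CPM in combination tumours and 69.2 ± 9.75 CPM after IgG (log2 fold change -0.06). Ceacam1 averaged 9.99 ± 1.03 CPM in combination tumours and 7.85 ± 1.21 CPM after IgG (0.35, edgeR adjusted p = 0.131), and Hmgb1 averaged 328 ± 24.5 CPM in combination tumours and 297 ± 11.9 CPM after IgG (0.14). Igsf11, a further ligand of VISTA, averaged 25.1 ± 1.93 CPM in combination tumours and 18.9 ± 2.51 CPM after IgG (0.41 ± 0.15, edgeR adjusted p = 0.0976). Fgl1, a ligand of LAG-3, averaged 0.181 ± 0.0807 CPM in combination tumours and 0.232 ± 0.0617 CPM after IgG.

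**Figure D3:**
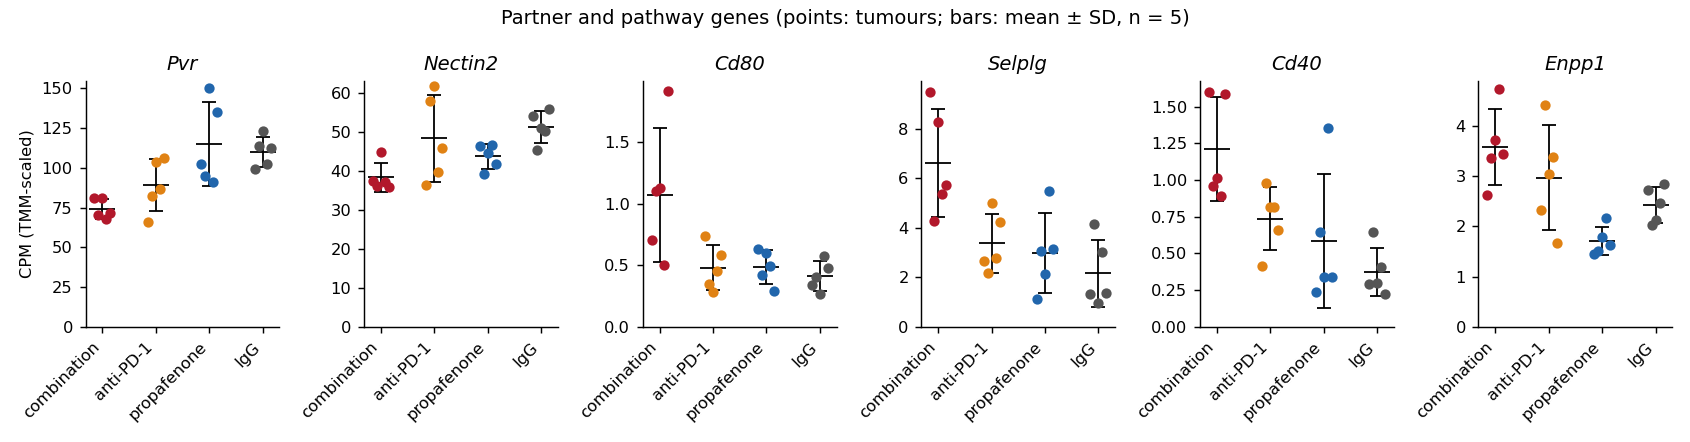
TMM-scaled CPM (vertical axes) of 6 partner and pathway genes in the combination, anti-PD-1, propafenone and IgG tumours, with 1 point per tumour and bars for mean ± SD, n = 5 each. For Pvr the 5 combination tumours, at 67.9 to 81.1 CPM, lie below all propafenone and IgG tumours.

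Of the 14 costimulators, receptors and ligands that enhance T cell activation, 11 were tested. In combination tumours against IgG 1 of them, Cd40, was called, where 2.24% of all genes were called higher. Cd40, a receptor of antigen-presenting cells, measured 1.60, 0.963, 1.01, 0.892 and 1.59 CPM in combination tumours and 0.294, 0.645, 0.299, 0.409 and 0.221 CPM after IgG, without overlap, as for 4.72% of all genes in this direction (log2 fold change 1.69 ± 0.42, edgeR adjusted p = 0.0304). Its mean anti-PD-1 effect was 1.01 ± 0.30 (edgeR adjusted p = 0.0395). The first call was lost without combination replicate 1, 4 or 5 or IgG replicate 1, 3 or 5 (1.57 to 1.98 over the 20 fits). The second held in 7 of 20 fits and was lost without combination replicate 1, 3, 4 or 5, anti-PD-1 replicate 2 or 4, propafenone replicate 1, 2, 3 or 5, or IgG replicate 1, 3 or 5 (0.92 to 1.30). With the muscle covariate the edgeR adjusted p was 0.235 against IgG and 0.147 for the mean effect, which without a filter had 0.0507. Cd28 averaged 0.390 ± 0.172 CPM in combination tumours and 0.212 ± 0.0997 CPM after IgG and was not called (edgeR adjusted p = 0.371).

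Enzymes next to CD39 in extracellular nucleotide breakdown were called in the mean anti-PD-1 effect. All 6 genes of the adenosine list were tested, and 2 rose in it, Nt5e and Enpp1, where 3.92% of all genes were called higher. Nt5e encodes CD73, which turns AMP into adenosine, and Enpp1 encodes an enzyme that cleaves ATP and the messenger cGAMP. Nt5e averaged 2.76 ± 0.491 CPM in combination tumours, 3.14 ± 1.19 CPM in anti-PD-1 tumours, 1.903 ± 0.436 CPM after propafenone and 1.94 ± 0.563 CPM after IgG. Its mean anti-PD-1 effect was 0.61 ± 0.18 on the log2 scale (edgeR adjusted p = 0.0386), and the call was lost without combination replicate 1, 2, 3 or 5, anti-PD-1 replicate 5, propafenone replicate 1, 3 or 5, or IgG replicate 3 or 5 (0.49 to 0.70 over the 20 fits). It was also lost without a filter (edgeR adjusted p = 0.0523), with limma on log2(TPM + 0.1) (0.0509), without the Hbb-bs tumours (0.075) and with the muscle covariate (0.183). Enpp1 measured 2.62, 3.36, 3.72, 4.73 and 3.44 CPM in combination tumours and 2.33, 4.42, 3.04, 3.37 and 1.66 CPM after anti-PD-1. It measured 1.45, 1.51, 1.79, 2.17 and 1.63 CPM after propafenone and 2.72, 2.02, 2.12, 2.47 and 2.84 CPM after IgG. Each combination tumour was above each propafenone tumour, as for 3.65% of all genes (log2 fold change 1.06 ± 0.23, edgeR adjusted p = 0.0261). That call was lost without combination replicate 3, 4 or 5 or propafenone replicate 3 or 5 (0.95 to 1.17), while the mean anti-PD-1 effect on Enpp1, 0.67 ± 0.16 (edgeR adjusted p = 0.016), was called in all 20 fits without 1 tumour (0.58 to 0.75). Both Enpp1 calls held under the 11 other alternatives, and with the muscle covariate the adjusted p was 0.0156 and 0.019.

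Lists tied to T cell state and to PD-1 and interferon signalling were read beside the share of all genes called by edgeR. That share was 4.88% in combination tumours against IgG and 8.35% for the mean anti-PD-1 effect. Few calls in lists of this size therefore do not set them apart from other genes. In combination tumours against IgG, 0 of 11 tested T cell state factors, 0 of 12 interferon gamma signalling genes and 0 of 8 PD-1 signalling genes were called by edgeR, with median log2 fold changes of 0.30, 0.23 and 0.16. Irf1, a transcription factor gene induced by interferon gamma, averaged 70.5 ± 25.8 CPM in combination tumours and 40.2 ± 14.1 CPM after IgG (edgeR adjusted p = 0.233). Ifng itself averaged 0.185 ± 0.180 CPM in combination tumours and 0.148 ± 0.188 CPM after IgG, near the floor. In the mean anti-PD-1 effect 1 of 12 interferon gamma signalling genes was called, the kinase gene Jak1, by 0.14 ± 0.04 (edgeR adjusted p = 0.0374), a call lost without combination replicate 1, 4 or 5, anti-PD-1 replicate 1, 4 or 5, propafenone replicate 1, 2 or 5, or IgG replicate 1, 2 or 3 (0.13 to 0.17), and also without a filter (edgeR adjusted p = 0.07), with limma on log2(TPM + 1) and log2(TPM + 0.1) (0.0589 and 0.0609) and with the muscle covariate (0.128). Of the 13 T cell markers 13 were higher in combination tumours against IgG, with a median of 1.22, and 0 were called. Cd8a averaged 1.45 ± 1.16 CPM in combination tumours and 0.591 ± 0.409 CPM after IgG (edgeR adjusted p = 0.321), and Foxp3, the factor of regulatory T cells, 0.403 ± 0.0841 CPM in combination tumours and 0.233 ± 0.134 CPM after IgG (edgeR adjusted p = 0.353).

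How the members varied among tumours of the same group was examined after removing group means from log2(CPM + 0.1), over the 20 tumours. The marker sums were used as the other measure, which gives 20 relations, each with a permutation p (100000 resamples within groups, Benjamini-Hochberg adjusted over the 20). For Vsir the correlation with the macrophage sum was r = 0.94 and rho = 0.95 (permutation p = 1e-05, the smallest possible, adjusted p = 0.0001 for r), and r = 0.93 without the 2 tumours farthest from the median. For Entpd1 the correlation with the T cell sum was r = 0.89 and rho = 0.87 (permutation p = 1e-05, the smallest possible), and with the macrophage sum r = 0.78 and rho = 0.78 (permutation p = 0.00057). With the T cell sum Tigit had r = 0.87 and rho = 0.85, Cd274 r = 0.86 and rho = 0.89, and Pdcd1 r = 0.84 and rho = 0.80 (permutation adjusted p of 0.00013, 0.0002 and 0.00037 for r). Without the 2 farthest tumours r was 0.87 and 0.69 for Entpd1 with the T cell and the macrophage sum, and with the T cell sum 0.83 for Tigit, 0.85 for Cd274 and 0.83 for Pdcd1. Adjusted values were under 0.05 for 9 of 10 members with each sum, and Ctla4 was the exception, at r = 0.47 and rho = 0.42 with the T cell sum (permutation adjusted p = 0.069) and r = 0.37 and rho = 0.34 with the macrophage sum (permutation adjusted p = 0.13). The share of all genes related to these sums was not computed, so this count does not set the members apart from other genes. The 2 sums were themselves related (r = 0.76, rho = 0.78, permutation p = 0.00059), so a relation with T cell signal and a relation with macrophage signal were not separated.

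**Figure D4:**
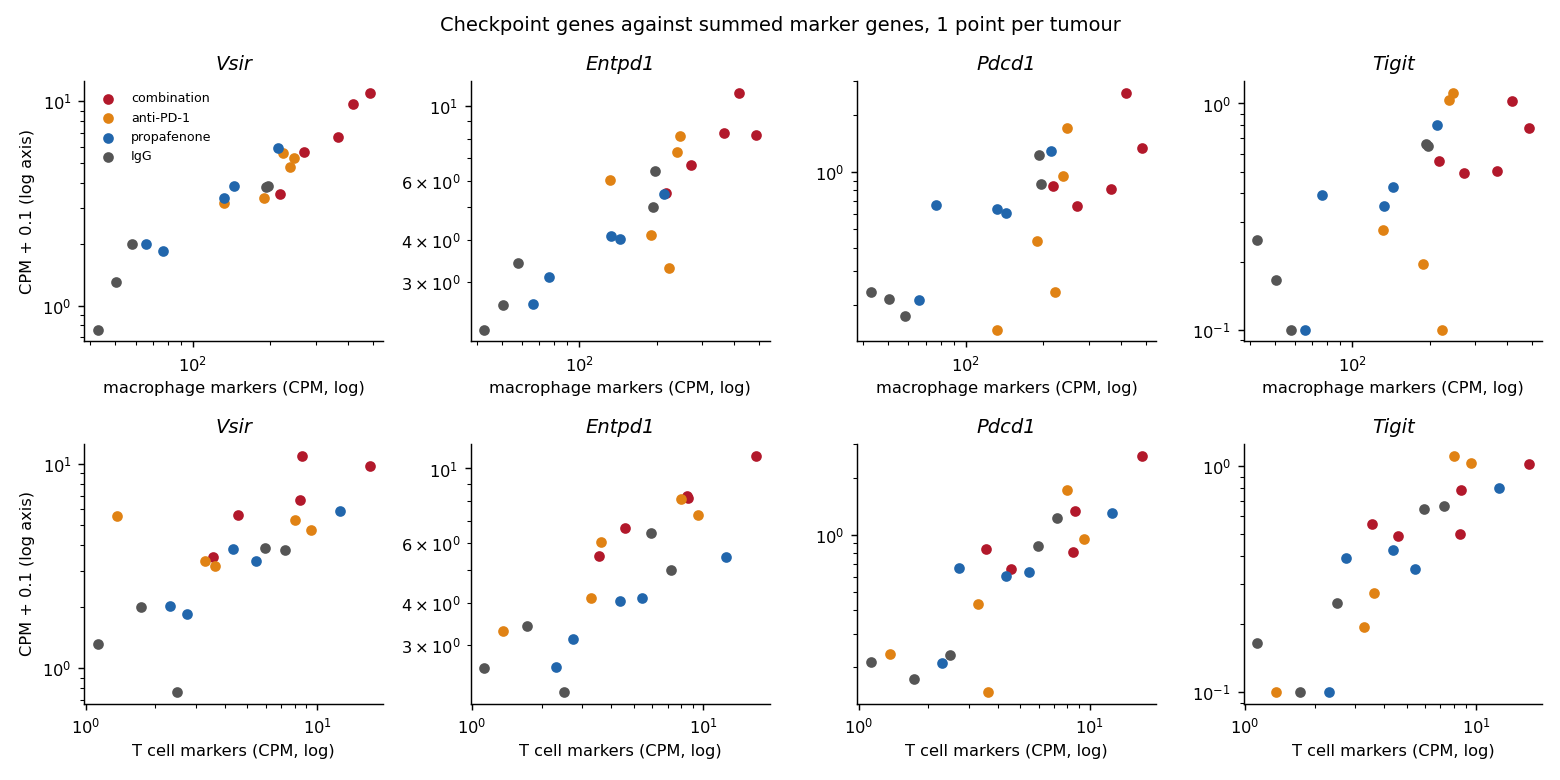
CPM + 0.1 of Vsir, Entpd1, Pdcd1 and Tigit (vertical log axes) against the summed CPM of 13 macrophage markers (top row, log axis) or 13 T cell markers (bottom row, log axis), with 1 point per tumour coloured by group. Vsir follows the macrophage sum most closely (r = 0.94 within groups), and Tigit follows the T cell sum (r = 0.87).

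Pairs of members were also related within groups, as a description over 20 tumours that share libraries. The highest correlations were between Cd274 and Tigit (r = 0.91), Pdcd1 and Tigit (r = 0.89) and Pdcd1 and Cd274 (r = 0.86), and the lowest between Ctla4 and Vsir (r = 0.28). Across 12467 genes with a mean of at least 1 CPM, the genes most like Pdcd1 were Psmb8 (r = 0.95), Psmb9 (r = 0.94) and H2-D1 (r = 0.93), which encode immunoproteasome subunits and an MHC class I chain. Those most like Cd274 were Gbp3 (r = 0.95), Trim12a (r = 0.95) and Ifit3b (r = 0.94), of which Gbp3 and Ifit3b belong to interferon-induced families. Those most like Entpd1 were Cxcl16 (r = 0.91), Tyrobp (r = 0.90) and Cybb (r = 0.90), a chemokine, a myeloid signalling adaptor and a subunit of the phagocyte oxidase. Those most like Vsir were Inpp5d, Rassf4 and Slc11a1 (r = 0.94 each), of which Inpp5d encodes the phosphatase SHIP and Slc11a1 a metal transporter of macrophages. Pik3ap1 (r = 0.91), Plbd1 and Lrrc25 (r = 0.88 each) were most like Havcr2, and Nod1, Uba7 (r = 0.88 each) and Vwa5a (r = 0.87) most like Lag3.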

How the data were processed

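Whole-tumour RNA was sequenced by the authors with a SMARTER mRNA library kit, per the labels. Tools named in the submitters' processing notes are HISAT2 2.2.1, SAMtools 1.9 and FastQC, with mm10 and GRCm38 as builds. Which tool counted reads, on which annotation and with which strand option, is not given in the sources used here. The deposited expected counts are estimated counts per gene, held as whole numbers and not scaled, and they sum to 55.99 to 64.51 M (M, 1000000) per tumour. Values of 4 and 8 are more frequent than their neighbours, so 1 fragment may add 4 counts. The deposited TPM were scaled by the authors to length and library. All 20 columns were used, and 32158 of 32285 identifiers matched GENCODE 21.

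Counts were fitted in R 4.3.3 with edgeR 4.0.16 (TMM, filterByExpr on the 4 groups, robust quasi-likelihood, 1 mean per group over all 20 tumours, 16 residual degrees of freedom), with Benjamini-Hochberg adjustment over 15875 genes and calls under 0.05. Standard errors are the size of the log2 fold change over the square root of F. Alternatives were other scalings, no filter, DESeq2 1.42.0, limma 3.58.1 on voom values and on log2(TPM + 1) and log2(TPM + 0.1), counts divided by 4, a replicate block, a muscle marker covariate, leaving out the 5 tumours above 1000 CPM of Hbb-bs and leaving out each tumour. The edgeR, DESeq2 and limma fits were tested on simulated data. There DESeq2 made false calls above its nominal rate, so its calls are given as an alternative only. Exact permutation used log2(CPM + 0.1) in SciPy 1.17.1. No tumour of a group was a copy of another (lowest chi-square per degree of freedom 4.431).

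The members and lists were chosen with earlier results of these data known. Named are all 10 members, pathway genes called in any contrast, the fixed partners and T cell genes of the design, and the 3 genes most like each member averaging at least 0.5 CPM, by Pearson r of log2 CPM (prior count 2) without group means. The correlations with marker sums were added after values were seen. Replicate numbers did not pair the tumours.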

Additional observations from a re-analysis of the deposited data

Results flagged for a closer look

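Within the 5 IgG tumours, Ctla4 in replicate 2 measured 0.6938 CPM and the nearest of the others 0.2211 CPM. The gap was 0.736 of the group's range, above the Dixon value of 0.71 for 5 samples. All 10 members were examined in the 4 groups, 40 sets of 5 tumours in all, and this was the 1 set past that value, where chance gives about 1 in 20. Without that tumour the log2 fold change of Ctla4 against IgG was 0.66 in combination tumours and 0.86 after anti-PD-1, both of the other sign, and neither was called.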

How the results depend on the processing

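The same results were computed under 31 alternatives, and no called value of a member or pathway gene changed its sign. Members called in combination tumours against IgG numbered 3 with DESeq2, limma voom, log2(TPM + 1) and log2(TPM + 0.1), 2 with counts divided by 4 and without the 5 tumours rich in Hbb-bs, 0 with the muscle covariate and 0 to 3 without 1 tumour, where 1 was called in the main result. Against propafenone they numbered 2 with DESeq2 and log2(TPM + 1), 1 with voom, log2(TPM + 0.1), counts divided by 4 and without the Hbb-bs tumours, and 0 to 2 without 1 tumour. For the mean anti-PD-1 effect, with 2 in the main result, they numbered 3 with voom and both TPM fits, 1 without a filter, 0 with the muscle covariate and 0 to 2 without 1 tumour.

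All genes called in combination tumours against IgG numbered 480 (368 higher, 112 lower) with library totals, against 774 (356 higher, 418 lower) with TMM, and 463 without a filter, 1419 with DESeq2, 0 with the muscle covariate and 5 to 1067 without 1 tumour, the lowest without IgG replicate 3. DESeq2 size factors in edgeR gave 306 higher and 217 lower. Against propafenone they numbered 347 (258 higher, 89 lower) with library totals, 335 without a filter, 1466 with DESeq2, 1142 without the Hbb-bs tumours and 4 to 1882 without 1 tumour. The mean anti-PD-1 effect had 769 with the muscle covariate, 2019 without the Hbb-bs tumours and 477 to 2273 without 1 tumour, and 775 higher and 443 lower with library totals. DESeq2 called 3, 21, 7, 2 and 9 genes for propafenone against IgG, anti-PD-1 against IgG, combination against anti-PD-1, the interaction and the mean propafenone effect. Anti-PD-1 against IgG had 13 without the Hbb-bs tumours and 0 to 1 without 1 tumour, and combination against anti-PD-1 had 2 with log2(TPM + 1). The causes were not tested.

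Of 2828 values of single genes 2634 kept their side of the threshold and either kept their sign or moved by less than 1 SE. Among these, 98 took the other sign within 1 SE of the main value. Log2 values that took the other sign and lay more than 1 SE from the main value, none of them called, were those of propafenone against IgG without the Hbb-bs tumours for Pdcd1lg2 (-0.16), Ctla4 (-0.063) and Havcr2 (-0.082). With the muscle covariate they were anti-PD-1 against IgG for Pdcd1 (-0.43), Havcr2 (-0.16) and Tigit (-0.55), combination against IgG for Tigit (-0.42) and Tox (-0.28), combination against propafenone for Tigit (-0.17), the mean anti-PD-1 effect for Pdcd1 (-0.17), Cd274 (-0.068), Havcr2 (-0.012) and Tigit (-0.36), and the mean propafenone effect for Entpd1 (-0.0066). Ctla4 lay between -0.72 and 0.86 for anti-PD-1 and between -0.51 and 0.66 for the combination against IgG without 1 tumour, the highest without IgG replicate 2, and turned to 1.17 for combination against anti-PD-1 with voom.

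Same-numbered tumours did not deviate together (30 pairs, mean r -0.00694, range -0.41 to 0.369). With a replicate block, Vsir was called against IgG (log2 fold change 1.87, adjusted p = 0.0342), and the number of member calls was the same as without it in 8 of 8 comparisons. Cd80 against IgG and Nt5e for the mean anti-PD-1 effect lost their calls with the block (adjusted p = 0.0603 and 0.0622). Pdcd1lg2, Ctla4 and Tox have no value with counts divided by 4, since they no longer passed the filter.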
